A study of Rattus norvegicus with 24 samples.

Results

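The data described here are the 60 probe sets, of 31099 on the array, whose single gene symbol in the platform annotation starts with Psma, Psmb, Psmc, Psmd, Psme, Psmf or Psmg followed by a digit. They cover 46 genes of the proteasome, its activators and its assembly factors: 37 genes have 1 probe set and 9 have several, at most 3. The RNA came from the supraoptic nucleus of Sprague Dawley rats, a hypothalamic nucleus with large vasopressin and oxytocin neurons, and was hybridised to Affymetrix arrays. Dehydrated females had no water for 72 hours and free access to food (5 arrays), and their controls were euhydrated females (4 arrays). Dehydrated males, 10 to 12 weeks old, were labelled as dehydrated for 3 days (5 arrays), and their controls were males of the same age (5 arrays). Each array, male or female, was labelled as the nuclei of 5 rats. The labels give no genetic change for any group and no age for the females. The arrays of lactating females held no values and were not analysed here.

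The proteasome degrades proteins that carry ubiquitin chains. Its core particle is a barrel of alpha and beta rings, with the proteolytic sites in the beta rings, and the 19S cap recognises the chain and unfolds the substrate with a ring of ATPases (Psmc genes) under a lid (most Psmd genes). Interferon induces the alternative catalytic subunits of the immunoproteasome (Psmb8, Psmb9 and Psmb10) and the PA28 activator (Psme1 and Psme2). Both are counted here under the immunoproteasome, best known from the making of peptides for class I antigen presentation. In the supraoptic nucleus, dehydration is known for raising the synthesis of secretory peptides, and misfolded products of the secretory pathway are among the substrates that the proteasome receives.

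Of the 60 probe sets, 7 are of alpha ring genes, 8 of 6 constitutive beta ring genes, 6 of 5 immunoproteasome genes, 9 of 6 ATPases of the cap, 3 of other subunits of the base of the cap, 13 of 8 lid genes, 4 of other activators or inhibitors (Psme4 and Psmf1), and 8 of 7 assembly factors. The remaining 2, Psmc3ip and Psme3ip1, match by name only: their products bind a proteasome gene product and are no subunits. Probe sets that share 2 or more symbols are not members, so the constitutive catalytic subunit Psmb6 and the activator Psme3 are not in the counts. The cap subunits Sem1 and Adrm1 do not match the symbol rule and are not in the counts either. A filter on low mean signal left 55 of the 60; the 5 dropped are additional probe sets of Psmc4, Psmd11, Psmb5 (2 of them) and Psme1, each with another probe set that passed. Of the 46 genes, 17 have a named pseudogene in the RefSeq table, up to 7 for Psmb3, and signals of such genes could include RNA of a near-identical copy.

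Signals are the authors' intensities, on which every array has a trimmed mean of about 100, and differences are dehydrated minus control on the scale of log2(signal + 32) after rescaling to a trimmed mean of 500, tested with limma and adjusted by Benjamini-Hochberg over all 21729 probe sets kept; rose and fell mean an adjusted p under 0.05. The number of arrays limits the precision, and as the design text allows that arrays of a group are partly technical replicates, the p-values measure the spread between these arrays. In bulk tissue, fewer cells of a type and less RNA per cell cannot be told apart. The array of dehydrated females with replicate number 5 went against its labels: Avp was 50.6 and Oxt 26.0 there, against 3330 or more for either gene on the other 4 arrays of dehydrated females, Xist was 2.59 and the Y-linked Eif2s3y 242. It was left out, so 4 dehydrated female arrays were set against 4 controls, and values with it are given where named. Median signals ran from 39.6 to 45.7 on dehydrated and 43.1 to 46.5 on control female arrays, and from 36.1 to 38.3 on dehydrated and 38.9 to 40.4 on control male arrays. The 3' to 5' signal ratio of actin was 6.83 to 8.998 in dehydrated and 5.23 to 7.12 in control males, and 2.56 to 5.30 in dehydrated females against 2.44 to 3.65 in 3 female controls and 13.3 in female control 2.

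In dehydrated males, subunits of the core and of the cap rose. None of 5 immunoproteasome probe sets rose, which with so few tested is near the 8.33% of all probe sets that rose. Of 55 members tested, 20 rose, 1 (Psme1) fell and 34 were not called. Of all 21729 probe sets tested, 8.33% rose and 9.37% fell. The median log2 difference was 0.14 over the members and -0.042 over all probe sets, and 41 members lay above 0 and 14 below, where 43.0% of all probe sets lay above 0 and 57.0% below. On 19 members, all 5 dehydrated arrays were higher than all 5 controls, a pattern seen on 6.82% of all probe sets, and on none were they all lower (5.84%). The 20 rising members are of 20 genes, with log2 differences from 0.19 to 0.52, a rise of between 14.1% and 43.5%. Another scaling changed these counts: 14 rose and 1 fell with quantile normalization and 30 rose and none fell with arrays centred on their median, where the share of rises among the calls over all probe sets was 54% and 71.3%, against 47.1%. Core rings had 8 rises of 13, and 4 and 11 with these scalings, and the cap 11 of 23, and 8 and 16. Fitting all 4 groups together left 6 rises.

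**Figure D1:**
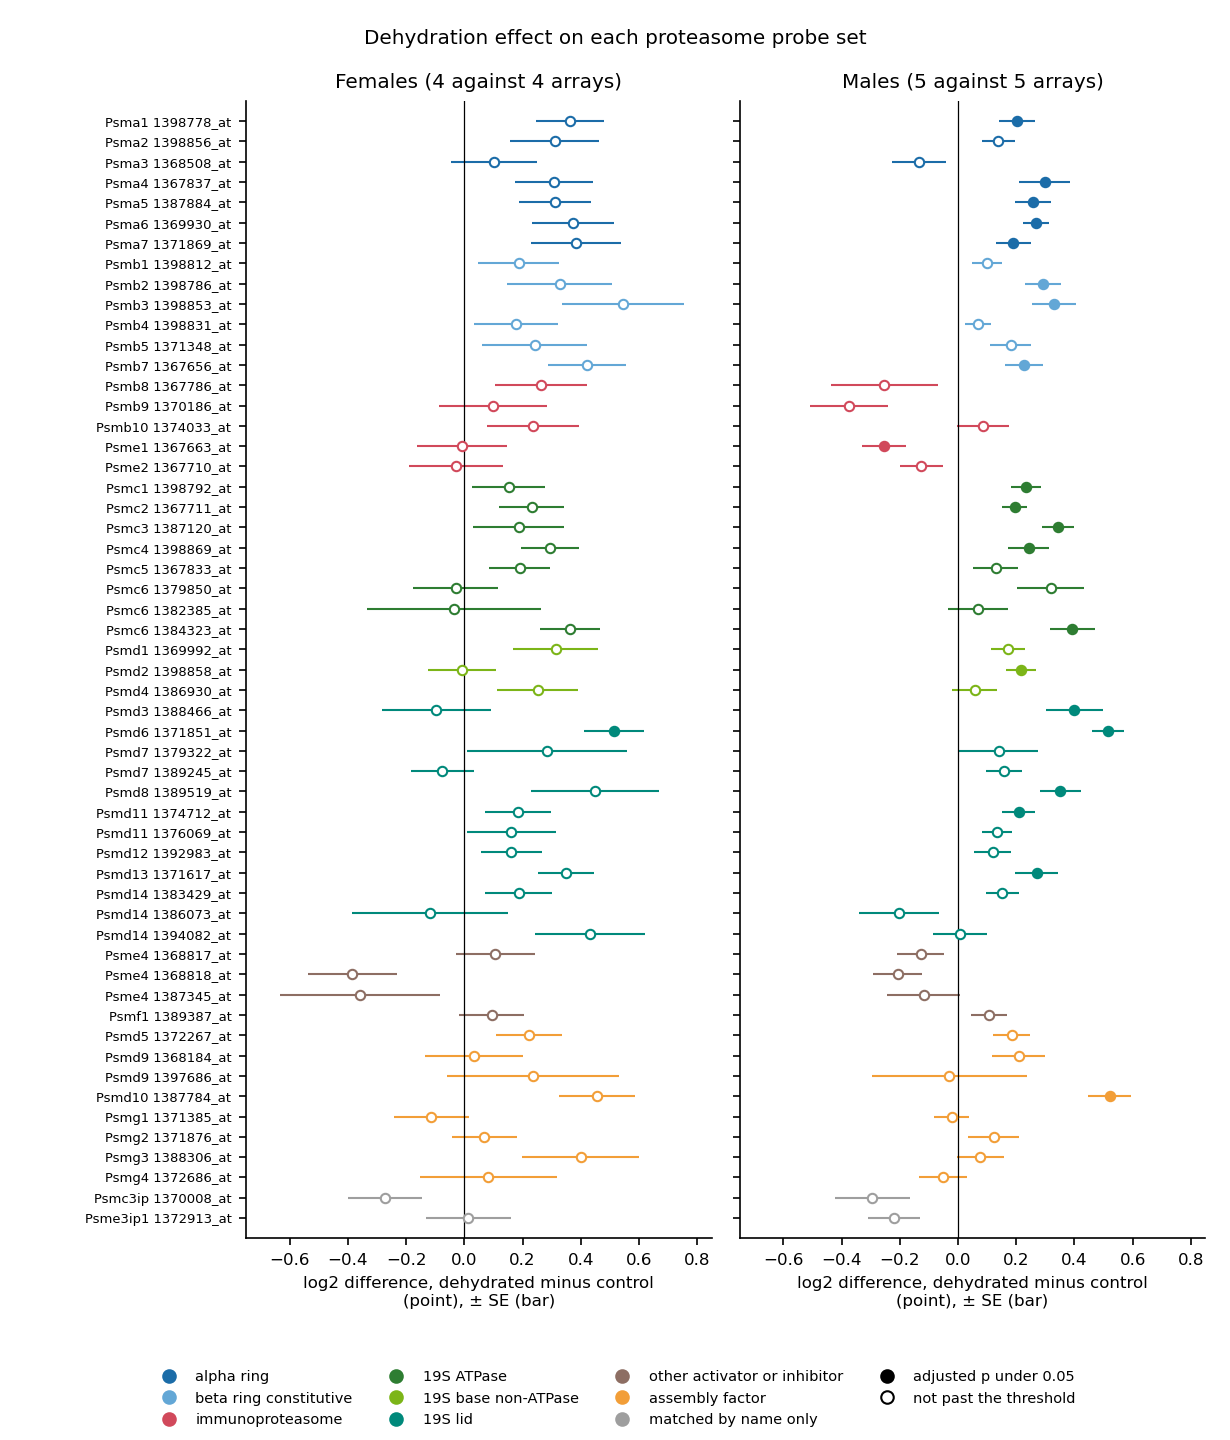
Log2 difference, dehydrated minus control (points, with bars of ± 1 SE), of each of the 55 proteasome probe sets tested, in females (left panel, 4 against 4 arrays) and males (right panel, 5 against 5 arrays), coloured by role; filled points passed the adjusted p threshold of 0.05. In males 20 members rose and 1 fell, in females 1 rose and none fell, and the female bars are about as long as the values for many members (median SE 0.146 in females and 0.0743 in males).

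Among lid subunits, 5 of the 12 probe sets tested rose in males. Psmd6, a lid subunit (Rpn7 in yeast) that helps hold the lid together, had the smallest p of all members. Its signal was 1039, 1190.3, 1071, 1142 and 1057 on dehydrated male arrays, against 717, 756, 784, 753 and 830.0 on control male arrays. All dehydrated arrays were higher than all controls, and the log2 difference was 0.51 ± 0.055 (SE, n = 5 each, limma adjusted p = 2.58e-05). Psmd8 (Rpn12), the lid subunit added last in assembly, was 291, 325, 262, 301 and 294 in dehydrated and 209.5, 234, 236, 219 and 248.9 in control males, again without overlap, a log2 difference of 0.35 ± 0.071 (limma adjusted p = 0.0039). Psmd3 (Rpn3) was 160.5, 139, 146, 163 and 193 in dehydrated and 119, 109, 131, 105 and 135 in control males. These groups too were apart, with a log2 difference of 0.40 ± 0.098 (limma adjusted p = 0.0121). Psmd13 rose by 0.27 ± 0.075 on the log2 scale. Of the 2 tested probe sets of Psmd11, one rose (0.21 ± 0.057) and the other was not called (0.13 ± 0.051, limma adjusted p = 0.0846), although all dehydrated arrays were above all controls on both. The 3 probe sets of Psmd14, the lid's deubiquitinating enzyme, had log2 differences of 0.15, 0.0069 and -0.20, and the 2 of Psmd7, its catalytically inactive partner, 0.14 and 0.16; none of these passed.

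Of the ATPase ring, which pulls the substrate into the core, 5 of 8 probe sets rose and none fell, and 5 of the 6 genes (all but Psmc5, at 0.13 ± 0.076) had a rising probe set. Psmc3 (Rpt5) was 465, 485, 480.4, 475 and 485 in dehydrated males, against 349, 389.7, 385, 361 and 393 in control males. Every dehydrated value lay above every control, with a log2 difference of 0.34 ± 0.054 (limma adjusted p = 0.000667). Psmc6 (Rpt4) was read by 3 probe sets that differed in call. By one it was 374, 428, 409.8, 476 and 396 in dehydrated and 276, 294, 324, 343 and 341 in control males, 0.39 ± 0.079 (limma adjusted p = 0.00358). By another the values were 318, 322, 234, 284 and 262 in dehydrated and 176, 218, 217, 244 and 282 in control males, and overlapped, at 0.32 ± 0.11 (limma adjusted p = 0.0676). By the third, whose signal was 70.4 to 103 in dehydrated and 76.3 to 90.4 in control males, the difference was 0.069 ± 0.10. Psmc4, Psmc1 and Psmc2 rose by 0.24, 0.23 and 0.19 on the log2 scale. Of the other base subunits, the scaffold Psmd2 (Rpn1) rose by 0.22 ± 0.052, while its companion scaffold Psmd1 (0.17 ± 0.058, limma adjusted p = 0.0527) and the ubiquitin receptor Psmd4 (0.057 ± 0.078) were not called.

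In the core, 5 of 7 alpha ring probe sets and 3 of 6 constitutive beta ring probe sets rose in males and none fell. Psma6 was 1704, 1747, 1694, 1742 and 1706 in dehydrated and 1454, 1486, 1426, 1304 and 1460.4 in control males. No dehydrated value overlapped a control, at 0.27 ± 0.045 (limma adjusted p = 0.00101). Psma4, Psma5, Psma1 and Psma7 rose by 0.30, 0.26, 0.20 and 0.19, and Psma2 (0.14 ± 0.056) and Psma3 (-0.13 ± 0.092) were not called. In the beta rings the structural subunits Psmb3 and Psmb2 rose by 0.33 ± 0.074 and 0.29 ± 0.061. The catalytic subunit with trypsin-like activity, Psmb7, was 806, 940.4, 845, 884 and 813 in dehydrated and 631, 744, 776, 729 and 786 in control males, without overlap. Its log2 difference was 0.23 ± 0.066 (limma adjusted p = 0.0278), a call kept in 12 of 19 alternatives. The chymotrypsin-like catalytic subunit Psmb5 was 1723, 1575, 1879, 1629 and 1566 in dehydrated and 1572, 1550.3, 1413, 1256 and 1600.1 in control males. These values overlapped, and the difference of 0.18 ± 0.070 was not called (limma adjusted p = 0.088). The other probe sets of Psmb5 were dim: one ran from 1.90 to 28.3 in dehydrated and 2.60 to 5.20 in control males, and the other from 4.60 to 42.3 in dehydrated and 3.20 to 22.2 in control males.

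Of 5 immunoproteasome probe sets tested in males, none rose and Psme1 fell, where 8.33% of all probe sets rose and 9.37% fell. The median log2 difference of the 5 was -0.25, against 0.20 for the 13 core ring probe sets and 0.19 for the 23 of the cap. Psme1 (PA28 alpha) was 512, 453, 452, 419 and 451 in dehydrated and 578, 609.5, 578, 508 and 468 in control males. The highest dehydrated and the 2 lowest control values overlapped, and the log2 difference was -0.25 ± 0.076 (limma adjusted p = 0.0327). That call was lost in 10 of 19 alternatives, among them when arrays were centred on their median (-0.18, limma adjusted p = 0.145). Psme2 (PA28 beta) was 274, 304, 275, 294 and 269.8 in dehydrated and 342, 342, 281, 283 and 304 in control males, -0.13 ± 0.072, not called. A second probe set of Psme1 was dim, at 3.6 to 18 in dehydrated and 12.4 to 28.1 in control males.

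Psmb9, the catalytic subunit that replaces Psmb6, was 90.8, 61.7, 82.0, 70.5 and 73.3 in dehydrated and 128, 97.5, 113, 91.2 and 74.3 in control males. Only control 5 lay among the dehydrated values, apart from which the highest dehydrated array was just under the next control, and the log2 difference of -0.38 ± 0.13 was not called (limma adjusted p = 0.0667). Psmb8, which replaces Psmb5, was 87.9, 39.9, 72.8, 53.6 and 74.0 in dehydrated and 86.1, 88.9, 85.4, 79.4 and 51.4 in control males, with wide overlap, -0.25 ± 0.18 (limma adjusted p = 0.373). Psmb10, which replaces Psmb7, was 145, 180.5, 189, 176 and 184 in dehydrated and 177, 160.3, 139.8, 163 and 183 in control males, 0.086 ± 0.090. It was the sole immunoproteasome member with a male value above 0, and the 95% interval of the difference ran from -0.11 to 0.28.

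Summarised per array, the mean of the 5 immunoproteasome probe sets, relative to the mean of the male controls, was -0.074, -0.33, -0.11, -0.26 and -0.15 on dehydrated male arrays and 0.17, 0.088, 0.0091, -0.062 and -0.20 on control male arrays. The same mean over the 13 core ring probe sets was 0.13, 0.26, 0.16, 0.21 and 0.16 on dehydrated and -0.048, 0.049, -0.025, -0.064 and 0.089 on control male arrays. The core means did not overlap between the groups, and the immunoproteasome means did, through control array 5. Markers of several cell types also differed between dehydrated and control males, where 8.33% of all probe sets rose and 9.37% fell. Of 10 tested microglia and macrophage markers, 4 (Aif1, Csf1r, Cd68 and Tyrobp) fell in dehydrated males and none rose, and the summed signal of the 13 listed ranged from 937.5 to 1413 in dehydrated and 1168 to 1928 in control males. Of 15 mural cell and meningeal markers 11 fell and 1 rose, with sums of 5110 to 9795 in dehydrated and 8286 to 13800 in control males. Of 9 magnocellular markers tested, 5 rose and none fell, with sums of 15880 to 18880 in dehydrated and 12510 to 14880 in control males. Of the listed magnocellular markers, Avp was 4397 to 5928 in dehydrated and 4337 to 5616 in control males. Oxt was 3872 to 5337 in dehydrated and 3950 to 5572 in control males, and both genes overlapped between the groups. Astrocyte markers fell in 4 of 11, ependyma and choroid plexus markers in 3 of 4 (sums of 493.1 to 798.8 in dehydrated and 954.5 to 1311 in control males) and blood markers in 2 of 2 (755.1 to 1071 in dehydrated and 1577 to 2155 in control males), with none rising. No oligodendrocyte, endothelium, GABAergic or cortical neuron marker passed. The part of these cell types in the proteasome results was not tested.

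**Figure D2:**
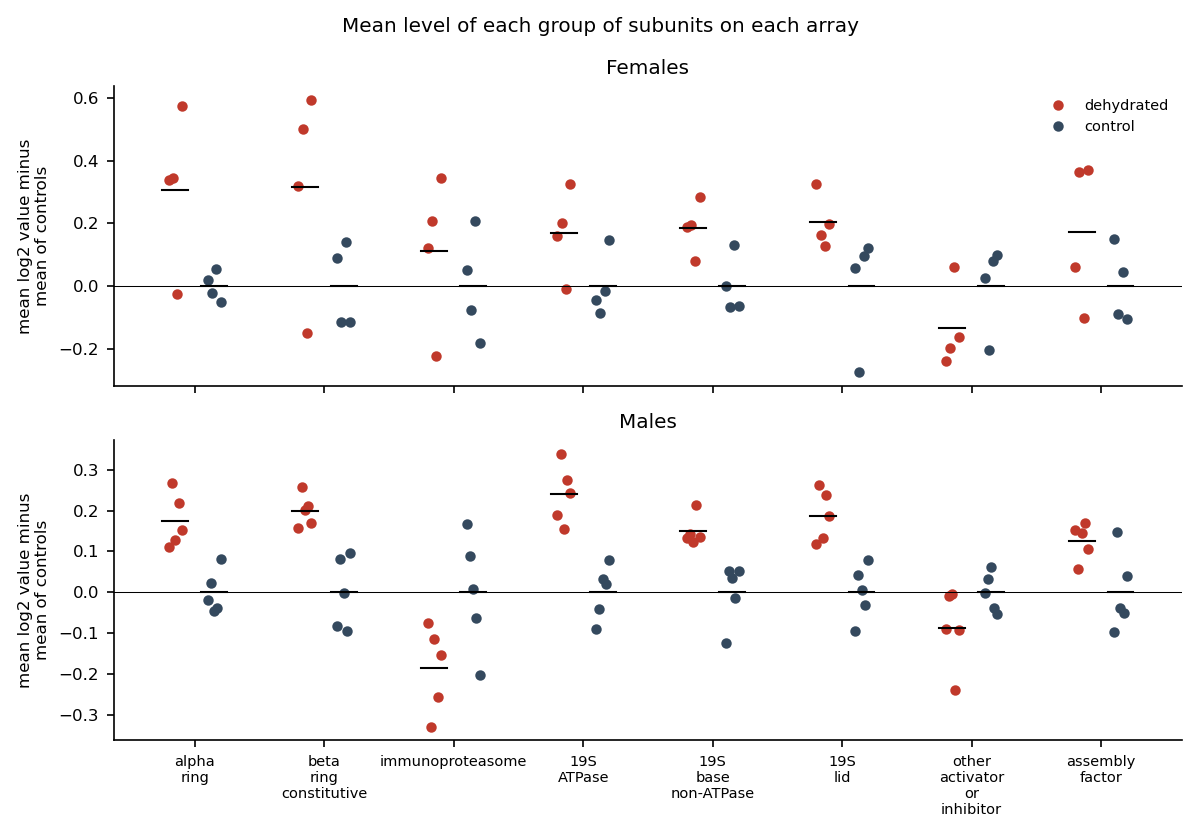
Mean log2 value of each group of subunits on each array, relative to the mean of the controls of the same set (females above, males below; red, dehydrated; dark, control; short bars, group means; the array of dehydrated females with replicate number 5 is left out). In males the dehydrated arrays lie above all controls for both rings and the 3 groups of the cap, and below 0 for the immunoproteasome (-0.33 to -0.074); in females dehydrated array 3 lies among or below the controls in both rings.

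**Figure D3:**
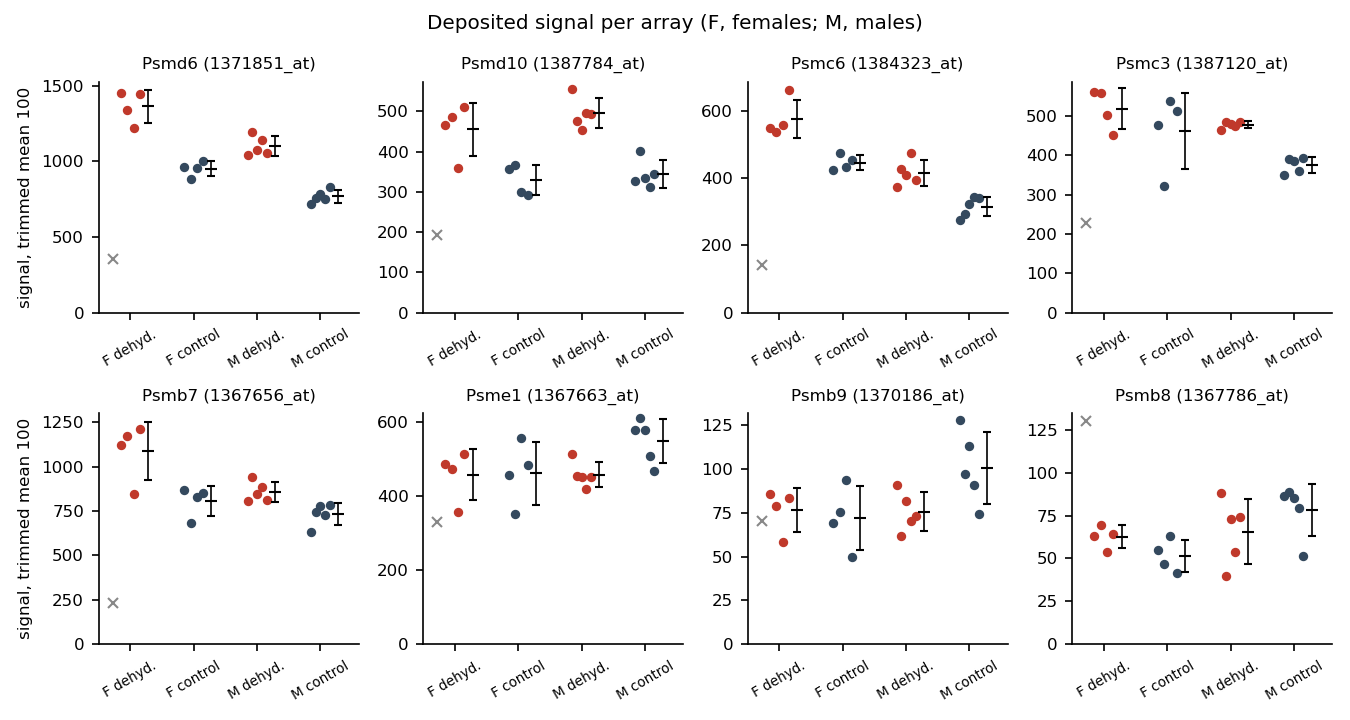
Deposited signal (trimmed mean 100) of 8 probe sets on every array: dehydrated females, control females, dehydrated males and control males from left to right, with the mean and SD beside the points (the grey cross, the array of dehydrated females with replicate number 5, is left out of both). Psmd6 was 1039 to 1190.3 in dehydrated males, above every male control (717 to 830.0), while Psmb9 and Psmb8 overlapped between the groups in both sets.

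The promoters of 5 genes are shown as examples of the elements described for interferon-induced and for constitutive subunits. Each is a window of 100 bases, 90 before the RefSeq transcript start and 10 from it, 5′ to 3′ on the gene's strand, from RefSeq on build GRCr8. Capitals mark matches to GAAA, 2 free bases and GAAA (the core of the interferon-stimulated response element) in the first 3 and to TGACNNNGC (the core of the antioxidant response element, which Nrf1 and Nrf2 bind) in the last 2, on either strand.
Psmb8: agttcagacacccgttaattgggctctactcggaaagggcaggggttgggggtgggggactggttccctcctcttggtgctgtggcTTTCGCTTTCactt
Psmb10: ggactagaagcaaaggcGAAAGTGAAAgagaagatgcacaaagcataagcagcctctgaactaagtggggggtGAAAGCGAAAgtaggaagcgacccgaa
Psme2: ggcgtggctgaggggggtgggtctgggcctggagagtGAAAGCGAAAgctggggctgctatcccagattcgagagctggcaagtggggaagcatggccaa
Psmb2: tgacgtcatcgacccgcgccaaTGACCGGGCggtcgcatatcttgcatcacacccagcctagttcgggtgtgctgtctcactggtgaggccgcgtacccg
Psmb5: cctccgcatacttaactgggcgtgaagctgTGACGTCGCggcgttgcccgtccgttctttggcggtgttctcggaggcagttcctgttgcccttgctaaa
Psmb8 lies at chr20:4657022-4657121 on the minus strand, Psmb10 at chr19:50743283-50743382, minus, Psme2 at chr15:33052742-33052841, minus, Psmb2 at chr5:144254968-144255067, plus, and Psmb5 at chr15:32047370-32047469, minus. Psmb8 is separated from Psmb9 by 11902 bases that hold the peptide transporter gene Tap1, and Psme1 and Psme2 are neighbours. The motifs were chosen after the files were seen and these windows because they hold a match. In promoters of 300 bases of the 42 member genes matched, this first motif was present in 7 (16.7%), against 3.92% of all 33469 promoters. These were Psmb8, Psmb10 (with 2 matches) and Psme2 of the 5 immunoproteasome genes, and Psma4, Psmb3, Psmd7 and Psmg4 outside them. The motif was present in 3 of 26 core ring and cap genes (11.5%) and in 2 of 18 genes that rose in males (11.1%). TGACNNNGC was present in 7 (16.7%) against 12.1%, CCAAT in 22 (52.4%) against 37.5%, and the GC box GGGCGG in 29 (69.0%) against 33.1% of all promoters. The match in Psmb2 overlaps letters of a CCAAT box and of a GC box. Of the 18 rising genes with a promoter in the table, 2 held TGACNNNGC. A match is a stretch of letters, and no binding was measured.

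Of the assembly factors, 1 of 8 probe sets rose in males and none fell. Psmd10 (gankyrin), a chaperone that holds the ATPase Psmc4 during assembly of the base, had the largest rise of all members. Its signal was 556, 477, 455, 497 and 494 in dehydrated and 326, 402, 335, 312 and 345 in control males. The groups were apart, and the log2 difference was 0.52 ± 0.074 (limma adjusted p = 0.000283), or 43.5%. The other base chaperones Psmd5 (0.18 ± 0.062, limma adjusted p = 0.0541) and Psmd9 (0.21 ± 0.090 and -0.029 ± 0.265 by 2 probe sets) were not called, nor were the chaperones of the alpha ring, Psmg1, Psmg2, Psmg3 and Psmg4, which ranged from -0.051 to 0.12. The 3 probe sets of the activator Psme4 (PA200) had log2 differences from -0.21 to -0.12, and the inhibitor Psmf1 0.11; none passed. Psmc3ip and Psme3ip1, matched by name only, were at -0.29 and -0.22 and did not pass.

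In dehydrated females, 1 of the 55 members rose and none fell, where 1.77% of all probe sets rose and 1.19% fell. At an unadjusted p under 0.05 limma had 13 members higher and 1 lower, against 8.33% and 10.6% of all probe sets. The median log2 difference was 0.19 over the members and -0.027 over all probe sets; 43 members lay above 0 and 12 below, where 46.3% of all probe sets lay above 0 and 53.7% below. All dehydrated arrays were above all controls on 5 members (5.31% of all probe sets), Psma1, Psmc4, Psmc6, Psmd6 and Psmd13, and below them on 1 (7.03%), Psmc3ip. With the array left out added back, none rose, the median was -0.029, and Psmd6 was at 0.13 (limma adjusted p = 0.954). Of all calls, 59.8% were rises, and 75.3% with arrays centred on their median. The median SE of the members was 0.146 in females and 0.0743 in males.

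The riser was again Psmd6, with signals of 1449, 1342, 1219.8 and 1442 on dehydrated and 959, 883, 958 and 1004 on control female arrays. Every dehydrated array was above every control, and the log2 difference was 0.52 ± 0.10 (n = 4 each, limma adjusted p = 0.024). The call was lost without any of dehydrated arrays 1, 2 or 4 or control arrays 1 or 3, and without dehydrated array 3 a total of 8 members rose. That array was the lowest dehydrated one for the core: the mean over the 13 core ring probe sets was 0.33, 0.42, -0.082 and 0.58 on dehydrated and 0.053, -0.066, 0.094 and -0.081 on control female arrays. All 13 core ring probe sets had female values above 0, with a median of 0.31, and none passed. Psmb7 was 1124, 1170.1, 849 and 1209.6 in dehydrated and 868, 684, 826 and 854 in control females, with array 3 among the controls, 0.42 ± 0.13 (limma adjusted p = 0.115). Psmb5 was 1338, 1816, 975.3 and 1676 in dehydrated and 1169.5, 1160.2, 1423 and 1051 in control females, 0.24 ± 0.18 (limma adjusted p = 0.504); its dim probe sets ran from 3.03 to 20.7 in dehydrated and 4.96 to 27.2 in control females by one and from 5.24 to 56.6 in dehydrated and 5.64 to 29.2 in control females by the other.

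Psmd10 was 466.4, 486, 361 and 510.0 in dehydrated and 357, 368, 300.3 and 294 in control females, where array 3 fell among the controls, 0.46 ± 0.13 (limma adjusted p = 0.0848). By the probe set that rose in males, Psmc6 was 549, 537, 560.0 and 662 in dehydrated and 424, 474, 434 and 455 in control females, apart but not called, 0.36 ± 0.10 (limma adjusted p = 0.0816). The other 2 probe sets of Psmc6 were at -0.029 and -0.035. Means on female control 2, the array with the actin ratio of 13.3, stood low beyond single members, although single members deviated there in both directions. Relative to the mean of the female controls, the 12 lid probe sets averaged -0.28 there, against 0.057, 0.097 and 0.12 on the other controls. All 55 members averaged -0.13 there, against 0.053, 0.077 and 0.0035, and their median there was -0.079, against 0.059, 0.056 and 0.0031. Other members were highest there among the female controls, such as Psma6 (1473), Psmb4 (1815) and the lid subunit Psmd12 (544). The core ring mean there (-0.066) lay within the other controls. Psmd8 and Psmc3 are 2 of the members with a low value. Psmd8 was 479, 508, 356 and 423 in dehydrated and 385, 182, 401 and 367 in control females, 0.45 ± 0.22, and 0.19 without control 2. Psmc3 was 561, 559, 503 and 451 in dehydrated and 477, 321, 537 and 512 in control females, 0.19 ± 0.16, and 0.024 without control 2. Neither passed (limma adjusted p = 0.296 and 0.556). Without control 2, Psmd6 remained the 1 member that rose (0.48, limma adjusted p = 0.0338).

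Of the 5 immunoproteasome probe sets tested in females none passed, with log2 differences from -0.028 to 0.26. Psmb8 was 63.03, 69.6, 53.7 and 64.2 in dehydrated and 55.1, 46.6, 62.8 and 41.4 in control females, 0.26 ± 0.16. Psmb9 was 85.6, 79.0, 58.5 and 83.8 in dehydrated and 69.1, 75.5, 93.9 and 49.9 in control females, 0.099 ± 0.19. Psmb8 overlapped through dehydrated array 3, the other 3 dehydrated arrays lying above every control, and Psmb9 overlapped widely. Psmb10 was 135, 157, 116 and 198 in dehydrated and 140.5, 133, 124 and 107 in control females, 0.24 ± 0.16. Psme1 was 485, 472, 356 and 513 in dehydrated and 457, 350.3, 556 and 482 in control females, -0.0086 ± 0.15, and by the dim probe set 28.2, 5.71, 4.28 and 7.91 in dehydrated and 9.15, 34.9, 5.47 and 22.9 in control females. Psme2 was 246, 292, 191 and 355 in dehydrated and 273, 256, 294 and 259 in control females, -0.028 ± 0.16. Array 3 was the lowest dehydrated array for Psmb8, Psmb9, Psmb10, the main probe set of Psme1 and Psme2. The mean of the 5 minus that of the core rings was -0.21, -0.21, -0.14 and -0.24 on dehydrated and -0.0015, -0.012, 0.11 and -0.10 on control female arrays, and -0.21, -0.59, -0.28, -0.47 and -0.31 on dehydrated and 0.22, 0.038, 0.035, 0.0020 and -0.29 on control male arrays. On this within-array scale the dehydrated arrays were below all controls in females and overlapped with 1 control array, control 5, in males. This contrast was not among the planned comparisons. In females the immunoproteasome mean itself overlapped, at -0.22 to 0.34 on dehydrated and -0.18 to 0.21 on control arrays. Its group mean was 0.11 on dehydrated female arrays, where that of the core rings was 0.31. Of all probe sets, 1.77% rose and 1.19% fell in females. Microglia markers did not pass in females (0 of 10 tested), with sums of 828.9 to 1022 in dehydrated and 1059 to 1401 in control females. Of 10 oligodendrocyte and myelin markers 5 fell in females and all 10 lay below 0 (median -0.75), with sums of 3967 to 6838 in dehydrated and 6996 to 9865 in control females. Mural cell and meningeal markers fell in 3 of 15, astrocyte markers in 1 of 11 and blood markers in 1 of 2, while 5 of 9 magnocellular markers rose, with sums of 14070 to 22520 in dehydrated and 10830 to 12110 in control females. Avp (3834 to 7666 in dehydrated and 3644 to 4254 in control females) and Oxt (3330 to 6698 and 3001 to 3576) overlapped between the groups. No endothelium, ependyma, GABAergic or cortical neuron marker passed. Their part in the female values was not tested.

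The effect of dehydration was compared between the array sets through an interaction term on 18 arrays, female effect minus male effect; sex, extraction, labelling and processing software change together between the sets and cannot be told apart. None of the 55 members passed, where 0.0322% of all probe sets did (7 in all), and 1 member had an unadjusted p under 0.05, where 10.0% did. That member was Psmd3. In females it was 176, 197, 159 and 159 in dehydrated and 201, 118, 248 and 194 in controls, -0.096 ± 0.19, and -0.30 without control 2, while it rose in males. The difference of the effects was -0.50 ± 0.21 (limma adjusted p = 0.427), with a 95% interval from -0.93 to -0.057. The next smallest p among members was that of one probe set of Psmd7, which read 403, 339, 376 and 395 in dehydrated and 419, 344, 419 and 416 in control females, and 489, 473, 458, 497 and 492 in dehydrated and 435, 461, 455, 428 and 381 in control males, a difference of -0.23 ± 0.11 (limma adjusted p = 0.507). For Psmd6 the effects differed by 0.00066 ± 0.10, with a 95% interval from -0.22 to 0.22. For Psmb9 and Psmb8 the intervals of the difference were -0.012 to 0.96 and -0.024 to 1.06.

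The sets have separate controls. Of the 55 members, 36 lay above 0 in both sets and 7 below 0 in both; over the 20492 probe sets tested in both, 28.8% lay above 0 in both and 39.3% below. Of the 20 members that rose in males, 18 lay above 0 in females, all but Psmd2 (-0.0066 in females) and Psmd3, and their median log2 difference was 0.34 in females and 0.27 in males.

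**Figure D4:**
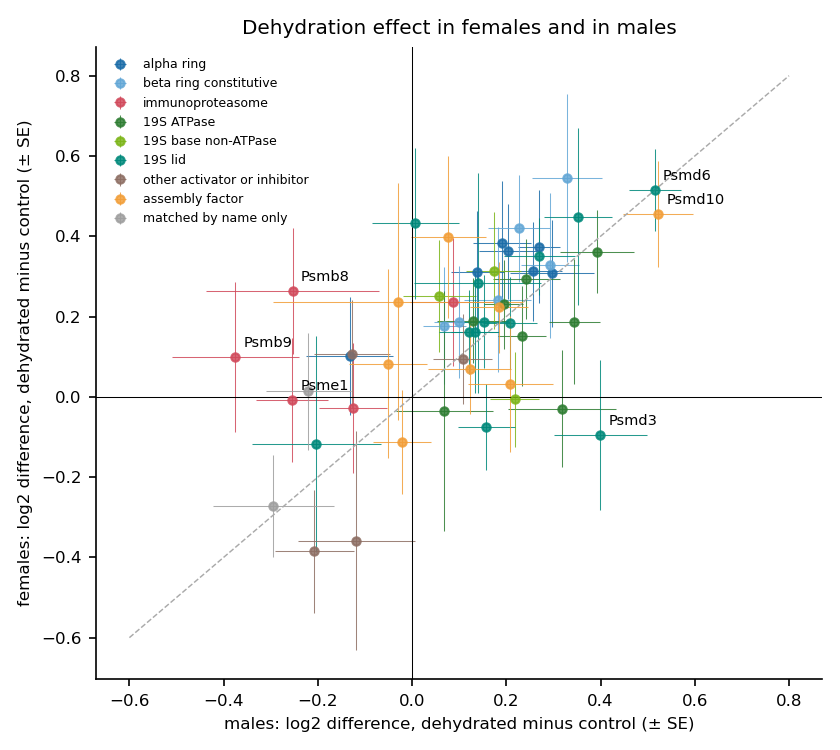
Log2 difference, dehydrated minus control, in females (vertical axis) against males (horizontal axis) for the 55 members, with bars of ± 1 SE; the dashed line marks equal values. Psmd6 and Psmd10 lie at the upper right in both sets, 36 members lie above 0 in both, and Psmd3 is at -0.096 in females and 0.40 in males.

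Genes that work with the proteasome were read from 8 lists. Over all probe sets, 8.33% rose and 9.37% fell in males, and 1.77% rose and 1.19% fell in females. In lists as short as these, none or 1 called is near those shares. Of 15 partners outside the symbol rule, 1 rose and 1 fell in females and 7 rose and none fell in males. They include chaperones, bound deubiquitinases, shuttle factors and the cap subunits Sem1 and Adrm1. Adrm1 was among the 7 that rose in males, and Sem1 was called in neither set. Pomp, the maturation factor of the core, was 1622 ± 24.7 in dehydrated and 1268 ± 85.9 in control males (SD, n = 5 each), a log2 rise of 0.36 ± 0.050 (limma adjusted p = 0.000238). Usp14, the deubiquitinase that trims chains at the cap, was 1512 ± 61.5 in dehydrated and 1193 ± 91.3 in control males, a rise of 0.34 ± 0.055. In females Ecpas, an adaptor and scaffold of the proteasome, rose by 0.51 ± 0.11 (limma adjusted p = 0.0378), and Ddi2, a ubiquitin-directed protease that activates Nrf1, fell: 71.6 ± 7.59 in dehydrated and 110.8 ± 8.99 in control females (SD, n = 4 each), a log2 difference of -0.59 ± 0.12 (limma adjusted p = 0.0298). Ddi2 was not called in males (-0.22 ± 0.084), and the difference between the sets was not called either (-0.37 ± 0.14, limma adjusted p = 0.343).

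Upstream, 5 activating enzyme genes were tested (Uba1, Uba2, Uba3, Uba6 and Uba7), and no ubiquitin gene was among them. None passed in females, with the smallest p for Uba6 (0.33 ± 0.10), and 2 rose in males. These were Uba1, the main ubiquitin-activating enzyme, by 0.37 ± 0.066, and Uba6, by 0.43 ± 0.12. Of 23 conjugating enzyme genes with a Ube2 symbol, 1 rose in females and 7 rose and 1 fell in males. Ube2j1, an enzyme of the ER membrane, rose in both sets: 74.9 ± 9.04 in dehydrated and 35.8 ± 13.2 in control females (log2 0.99 ± 0.22, limma adjusted p = 0.0343), and 71.1 ± 7.02 in dehydrated and 49.8 ± 4.94 in control males (0.46 ± 0.10, limma adjusted p = 0.00685). Ube2k rose by 0.26 ± 0.055 and Ube2e3 fell by 0.17 on the log2 scale in males. Of 20 genes of p97 and ER-associated degradation, none passed in females (smallest p for Erlec1, 0.31 ± 0.11) and 8 rose and none fell in males. Those with the smallest p were Sdf2l1, an ER luminal co-factor (0.34 ± 0.074), and Nploc4, which links p97 to ubiquitin chains (0.30 ± 0.073).

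Nrf1 (Nfe2l1) is known in mammals for raising proteasome genes when proteasome capacity is short, and Nrf2 (Nfe2l2) for antioxidant genes. Of this list none of 12 tested passed in females (smallest p for Gclm, 0.45 ± 0.12, limma adjusted p = 0.0677), and 5 of 11 rose and 1 fell in males. Nfe2l1 itself, given after its values were seen, was 254.3 ± 34.6 in dehydrated and 333 ± 87.8 in control females (-0.35 ± 0.18, limma adjusted p = 0.317), and 269 ± 18.4 in dehydrated and 240.4 ± 13.8 in control males (0.16 ± 0.068, limma adjusted p = 0.128). It was called in neither set, nor was the difference of the effects (-0.51 ± 0.19, limma adjusted p = 0.345). Hmox1, heme oxygenase, was 94.7 ± 2.89 in dehydrated and 55.3 ± 8.13 in control males (0.72 ± 0.10), and Srxn1, sulfiredoxin, rose by 0.55 ± 0.090. Nfe2l2 itself fell, at 163 ± 21.4 in dehydrated and 217 ± 30.1 in control males (-0.40 ± 0.11, limma adjusted p = 0.0182). Of the class I antigen processing and interferon list, none of 16 passed in females (smallest p for Irf7, 0.33 ± 0.12) and none of 18 rose in males, where Mx1, an interferon-induced GTPase, fell: 33.4 ± 7.05 in dehydrated and 51.2 ± 11.3 in control males (-0.53 ± 0.16, limma adjusted p = 0.0335).

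The COP9 signalosome is built like the lid but is a separate particle. Of its 9 genes 1 rose in each set, Cops5, the catalytic subunit that removes Nedd8: by 0.50 ± 0.10 in females (423.4 ± 7.999 in dehydrated and 298 ± 30.9 in control females) and by 0.35 ± 0.072 in males (418 ± 40.4 in dehydrated and 325 ± 21.6 in control males). Of the 8 genes of the CCT chaperonin, a ring complex with no part in degradation, none passed in females (smallest p for Cct8, 0.16 ± 0.099) and 2 rose in males, Tcp1 (0.29 ± 0.057) and Cct3 (0.17 ± 0.053). List medians in males were 0.22 for the partners, 0.21 for activating enzymes, 0.17 for p97 and ER-associated degradation and 0.16 for the Nrf1 and Nrf2 list. They were 0.092 for conjugating enzymes, 0.060 for COP9, 0.057 for CCT and -0.018 for class I and interferon, against -0.042 over all probe sets. In females the medians were 0.25 for the partners, 0.11 for activating enzymes, 0.063 for p97 and ER-associated degradation and 0.054 for the Nrf1 and Nrf2 list. They were 0.031 for conjugating enzymes, 0.14 for COP9, 0.070 for CCT and 0.24 for class I and interferon, against -0.027.

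**Figure D5:**
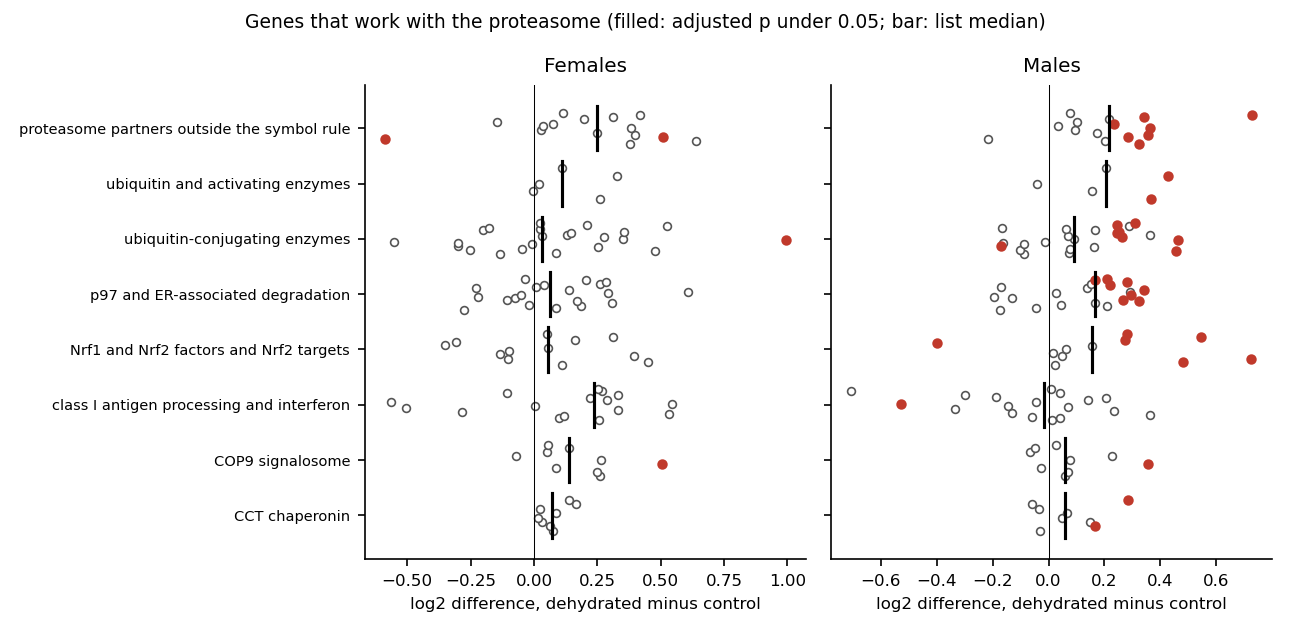
Log2 difference, dehydrated minus control, of the genes of 8 lists around the proteasome (females left, males right; each circle is a gene, filled where the adjusted p was under 0.05; upright bars, list medians; circles are spread vertically for legibility). In males 7 of 15 partners and 8 of 20 p97 and ER-associated degradation genes rose, against 8.33% of all probe sets. In females Ube2j1 lies furthest right (0.99) and Ddi2 furthest left (-0.59).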

How the data were processed

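Per the submitters' processing notes, male signals came from GCOS 1.2 and female signals from MAS5; other settings are not given in the sources used here. The deposited values are intensities per probe set on a linear scale, which the authors had scaled on each array to a trimmed mean (2% at each end) of about 100. No counts exist for arrays, and the number of arrays limits the precision. Per the labels' protocols, male RNA was extracted with QIAzol and RNeasy columns and amplified with MessageAmpII, and female RNA was extracted with Trizol and labelled by the Affymetrix protocol. Of 24 samples, 5 had empty columns and 1, dehydrated female replicate 5, was left out.

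From these values, signals were rescaled to a trimmed mean of 500, 57 control probe sets dropped, log2(signal + 32) taken, and probe sets above the 30th percentile of mean log2 kept (21729 in each fit). R 4.3.3 with limma 3.58.1 (lmFit, eBayes with trend) gave log2 differences, SEs and Benjamini-Hochberg adjusted p-values, for 5 against 5 male arrays, 4 against 4 female arrays, and the interaction on 18 arrays. Simulated data over 21729 probe sets had 100 changed per size. In the male design 21 were recovered at log2 0.3 and 96 at log2 1.0, and in the female design 0 and 66. The simulations held fewer changes than the data, with 126 calls in the male design, against 1809 rises and 2035 falls. In the female design there were 71 calls, against 384 rises and 258 falls. With fewer changes the adjusted threshold is stricter, so these recovery counts do not measure how many members could be called. Platform symbols name 20832 probe sets once, 436 several times and 9831 not at all. Members and lists were chosen with earlier results of these data known. Members named by rule are the immunoproteasome and catalytic subunits (all probe sets), the 6 largest rises and 3 largest falls past the threshold per set and the 2 smallest p of the difference between sets, 17 probe sets in all, with other probe sets of a gene where calls differ; Psma6, also printed array by array, was chosen after its values were seen. Genes given with values from the lists are, per list and set, up to 2 rising and 2 falling with the smallest p. Where none was called, the smallest p is given, and Nfe2l1 was added. Each gene of a list or marker set is represented by its probe set of highest mean, and its other probe sets were not counted. Motifs were searched on both strands in RefSeq promoters (GRCr8). Python 3.11.15 and matplotlib 3.10.9 were used. Replicate numbers follow accession order and pair no arrays. Alternatives were other scalings, offsets and filters, no trend, array weights, one fit with all 4 groups, the excluded array added, and each array left out in turn.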

Additional observations from a re-analysis of the deposited data

Results flagged for a closer look

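In 8 of 68 combinations of a probe set and a group, over the 17 probe sets named by rule, 1 array stood apart from the rest of its group by Dixon's test, where chance gives about 3.4. No explanation was tested. In males, Psmb8 was 51.4 on control array 5, against 79.4 to 88.9 on the other 4 controls, and Psmb10 was 145.2 on dehydrated array 1, against 176.1 to 188.7 on the others. The dim probe set of Psme1 was 3.6 on dehydrated male array 5, against 13.9 to 18, and 28.25 on dehydrated female array 1, against 4.278 to 7.913. The dim probe set of Psmb5 was 20.69 on dehydrated female array 4, against 3.028 to 4.538, and 27.16 on female control 4, against 4.958 to 7.925. Psmd8 was 182.4 on female control 2, against 366.6 to 400.7 on the other controls, and one probe set of Psmd7 was 344.3 there, against 415.6 to 419.2; this control had an actin 3' to 5' ratio of 13.3 and a GAPDH ratio of 4.12, against 1.02 to 1.05 for GAPDH on the other 3.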

How the results depend on the processing

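No paired analysis was possible because the replicate numbers follow accession order and the groups share no label that pairs arrays. In males 20 members rose, and 13 without the intensity trend and 6 in one fit with all 4 groups; leaving out 1 array gave 13 to 22, the 13 without dehydrated array 2. The 1 fall became 0 with arrays centred on their median, without the trend and in the fit with all 4 groups, and 2 with array weights, and ran from 0 to 2 over single arrays left out. The male median of 0.14 became 0.22 with arrays centred on their median and ran from 0.14 to 0.16 over single arrays left out. In females 1 member rose, and 0 with quantile normalization, without the trend and with the excluded dehydrated array added, 5 with array weights and 11 in the fit with all 4 groups; leaving out 1 array gave 0 to 8. The female median of 0.19 became -0.029 with the excluded array and ran from 0.16 to 0.27. The median difference of the effects was 0.060, became -0.19 with the excluded array and ran from -0.0051 to 0.15; no member was called in any alternative run. Of the 20 risers, Psmc6, Psmd10, Psmc3 and Psmd6 were called in all 19 alternatives. Psma7 was called in 8, Psma1 in 10, Psmb7 and Psma4 in 12, Psmd11 in 13 and Psmc4 in 14. None of the 20 changed sign. The causes were not tested.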

Other observations

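Probe sets that carry several symbols were outside the counts. The one for Psmb6l1 and Psmb6, the constitutive counterpart of Psmb9, read 751.2 to 1551 in dehydrated and 621.6 to 835.7 in control females (log2 0.59 ± 0.19, limma adjusted p = 0.121), and 710.4 to 922 in dehydrated and 557.7 to 659.2 in control males, without overlap (0.40 ± 0.073, limma adjusted p = 0.00182). The one for Psma3l and Psma3 read 526.4 to 811.9 in dehydrated and 363.4 to 539.5 in control females (0.50 ± 0.16, limma adjusted p = 0.114), and 417.5 to 558.9 in dehydrated and 336.1 to 388 in control males (0.39 ± 0.073, limma adjusted p = 0.0026), while the member probe set of Psma3 was at -0.13 in males. For Psme3, the nuclear PA28 activator, 1 of the probe sets it shares with Aoc3 and G6pc1 read 211.9 to 266.5 in dehydrated and 170.4 to 195.2 in control males (0.33, limma adjusted p = 0.00834). Another read 218.9 to 238.5 in dehydrated and 189.7 to 210 in control males (0.19, limma adjusted p = 0.0467). A further probe set was not called in males (0.29, limma adjusted p = 0.183), and the dimmest was not tested there. In females the log2 differences of these probe sets, in the same order, were 0.33, -0.12, -0.016 and 0.064, none called. Which of the sharing genes gave these signals cannot be told apart.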
